A study of Mus musculus with 9 samples.

Results

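The comparison set 3 arrays of primary visual cortex from dark-reared mice against 3 arrays from control mice, 6 of the 9 arrays of the series. Members were chosen by their labels: the dark-reared mice were C57BL6 animals kept in complete darkness from birth until postnatal day 28, and the control mice were C57BL6 animals of the same age raised under a normal cycle of light and dark. The other 3 arrays held cortex from the side opposite a lid-sutured eye (closed on postnatal day 24), and entered through the estimate of the spread, the probes used for scaling and the filter on detection. From each sample, 100 ng of total RNA was hybridised to a 1-colour Agilent mouse microRNA (miRNA) array at 64 °C. Whether a sample was 1 animal or a pool is not given in the sources used here, so the p-values reflect spread among samples that may be no more than technical. The question addressed is which mature miRNAs of visual cortex differ when vision is withheld throughout postnatal life.

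A miRNA is a short RNA that pairs with messenger RNAs, mainly through its seed (bases 2 to 8), and lowers their stability or translation. In neurons some miRNA genes are switched on by synaptic activity. The best known is the locus of miR-132 and miR-212, which is transcribed under the control of the activity-dependent factor CREB, and miR-132 is known to influence dendritic spines and plasticity of visual cortex. miRNAs of the miR-200 family are typical of epithelia, and miR-204 is abundant in choroid plexus and pigmented epithelium.

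The sequences of the miRNAs on which the comparison turns are shown with the seed in capitals, since miRNAs that share a seed share most of their potential targets. They are RefSeq mature sequences on GRCm38.p6, and 263 of the 318 tested miRNAs were matched to such an entry.

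miR-132, chr11:75173723-75173744, plus strand: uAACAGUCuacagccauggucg

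miR-212, chr11:75173443-75173464, plus strand: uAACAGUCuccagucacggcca

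miR-200b, chr4:156055685-156055706, minus strand: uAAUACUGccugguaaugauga

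miR-429, chr4:156053916-156053937, minus strand: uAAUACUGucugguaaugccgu

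miR-200a, chr4:156054911-156054932, minus strand: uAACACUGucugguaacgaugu

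miR-7a, from chr7:78888295-78888317, plus strand, and chr13:58392841-58392863, minus strand: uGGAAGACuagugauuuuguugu

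miR-7b, chr17:56243017-56243040, plus strand: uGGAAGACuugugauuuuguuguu

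miR-204, chr19:22750610-22750631, plus strand: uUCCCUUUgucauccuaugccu

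The pair miR-132 and miR-212 shared the seed AACAGUC and 17 of 22 bases, with the first difference at position 10 from the 5′ end. The seed AAUACUG was common to miR-200b and miR-429, which matched at 18 of 22 bases. miR-200a differed from miR-200b from position 4, inside the seed, although it lies between the other two within the same stretch of chromosome 4. miR-7a and miR-7b matched at 22 of the 23 compared bases and differed by A10U, outside the seed.

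Levels are given as log2 of the signal divided by the array's 75th percentile, so that 0 stands for that percentile. Changes are dark-reared minus control on that scale, with the standard error (SE) and the Benjamini-Hochberg adjusted p of limma over 318 miRNAs. Since probes differ in brightness, levels of different miRNAs are not compared. All 6 arrays lay on 1 slide, and same-numbered arrays shared a slide column, but the control arrays occupied slide row 1 and the dark-reared arrays slide row 2, so that row and rearing cannot be told apart. The arrays detected 305 to 359 mouse miRNAs in dark-reared and 310 to 333 in control samples. Their scaling percentile ranged over 401 to 790 intensity units in dark-reared and 492 to 1022 in control samples. The additive noise estimated by the scanner software was 6.03 and 6.62 on dark-reared and control replicate 1, against 2.29 to 3.30 on the other 4 arrays.

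The dark-reared arrays showed less miR-132 and more miR-200b than the control arrays. In the fit without a block, these were the 2 of 318 miRNAs (0.629%) that passed an adjusted p of 0.05. With the replicate number of dark-reared and control arrays as a block, 0 passed on 9 arrays and 1, miR-132, on the 6 arrays. The monocularly deprived arrays had no block. Without the block, 28 miRNAs had an unadjusted p under 0.05 (8.81%), 17 of them higher (5.35%) and 11 lower (3.46%). All dark-reared arrays lay above all control arrays for 34 miRNAs (10.7%) and below them for 25 (7.86%), 59 in all (18.6%). The change was above 0 for 198 of 318 (62.3%), with a median of 0.05, but this share followed the scaling: it was 32.1% with scaling on all miRNA probes, 42.1% with quantile normalization and 19.8% without scaling. Of the 318, 82 were higher in all 3 slide columns (25.8%) and 59 were lower in all 3 (18.6%). In bulk tissue, fewer cells of a type and less RNA per cell cannot be told apart.

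**Figure D1:**
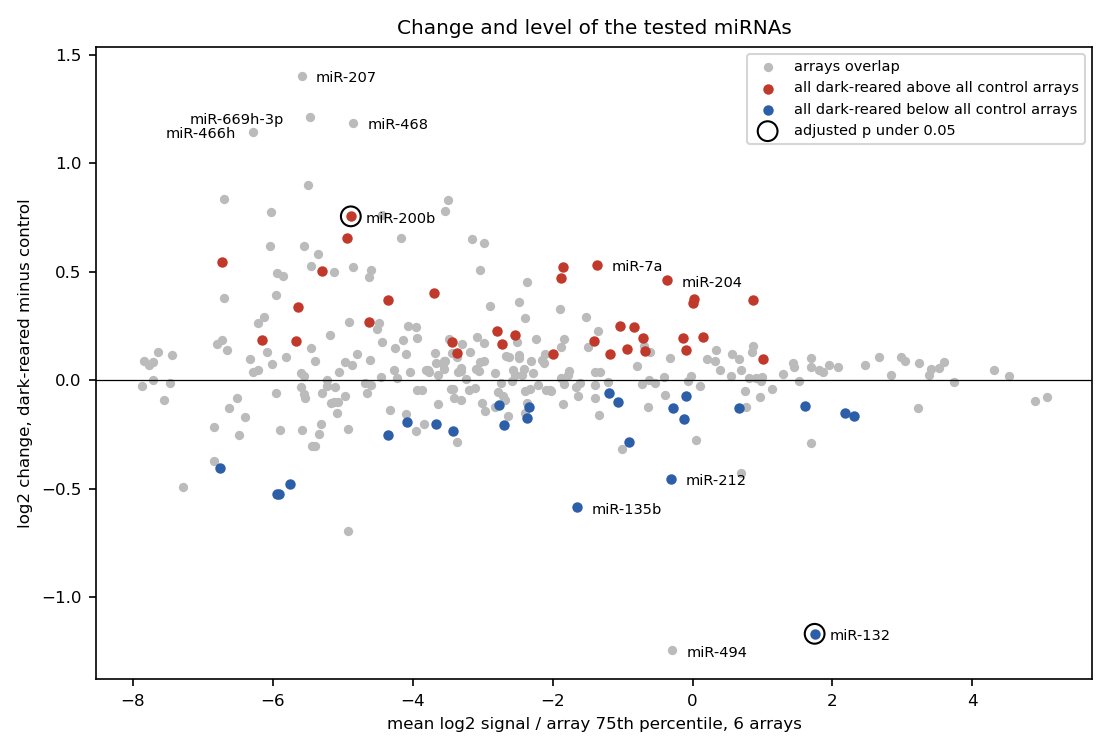
Log2 change (dark-reared minus control) of each of the 318 tested miRNAs against its mean log2 signal over the 6 arrays, relative to the array's 75th percentile. Red and blue points have groups that do not overlap, and rings mark miR-132 and miR-200b, which passed an adjusted p of 0.05. The rises past 1 were in dim miRNAs whose arrays overlap.

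miR-132 measured 1.05, 1.28 and 1.15 on the dark-reared arrays and 2.33, 2.41 and 2.25 on the control arrays. The groups lay far apart: the highest dark-reared array was below the lowest control array by more than the whole range of either group. In the dark-reared samples its level was 2.25-fold lower, a log2 change of -1.17 (SE 0.17, limma adjusted p = 0.0365), with differences of -1.28, -1.13 and -1.10 in slide columns 1, 2 and 3. Before scaling, its mean intensity was 1631, 977 and 1715 units on the dark-reared arrays, against 5122, 2619 and 3681 units on the control arrays. Both of its probes lay below control without overlap, with changes of -1.21 and -1.15. With the replicate number as a block the adjusted p was 0.0531 in the limma fit of 9 arrays, which ends the call, and 0.0239 in that of the 6 arrays.

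miR-212, processed from the same locus, measured -0.54, -0.37 and -0.71 on the dark-reared arrays and -0.11, 0.02 and -0.17 on the control arrays. The groups did not overlap, but the distance was smaller than for miR-132 (log2 change -0.45, SE 0.11) and did not pass (limma adjusted p = 0.174). With the replicate block, the limma adjusted p of miR-212 was 0.0634 on 9 arrays and 0.102 on 6. Its differences within slide columns were -0.43, -0.39 and -0.54, and its 2 probes gave -0.46 and -0.45. In the monocularly deprived samples, on another slide and compared with the same control arrays, miR-132 averaged 1.82 ± 0.37 (SD, n = 3) and miR-212 -1.34 ± 0.10 (SD, n = 3).

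The activity-regulated list had 9 tested members, of which 3 lay above control and 6 below, with a median of -0.11, against 0.05 over all 318. The count that passed was 1 lower, miR-132, and 0 higher. The groups of the list did not overlap for 1 higher and 3 lower members, against 10.7% and 7.86% of all miRNAs. Since miR-132 and miR-212 are 2 of those 3 lower members, the list gives no separate reading of their falls. The highest member of the list was miR-485* (0.78, SE 0.59, limma adjusted p = 0.728), named after its values were seen. It measured -4.53, -5.88 and -6.51 on the dark-reared arrays and -5.41, -6.95 and -6.89 on the control arrays. Those groups overlap.

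**Figure D2:**
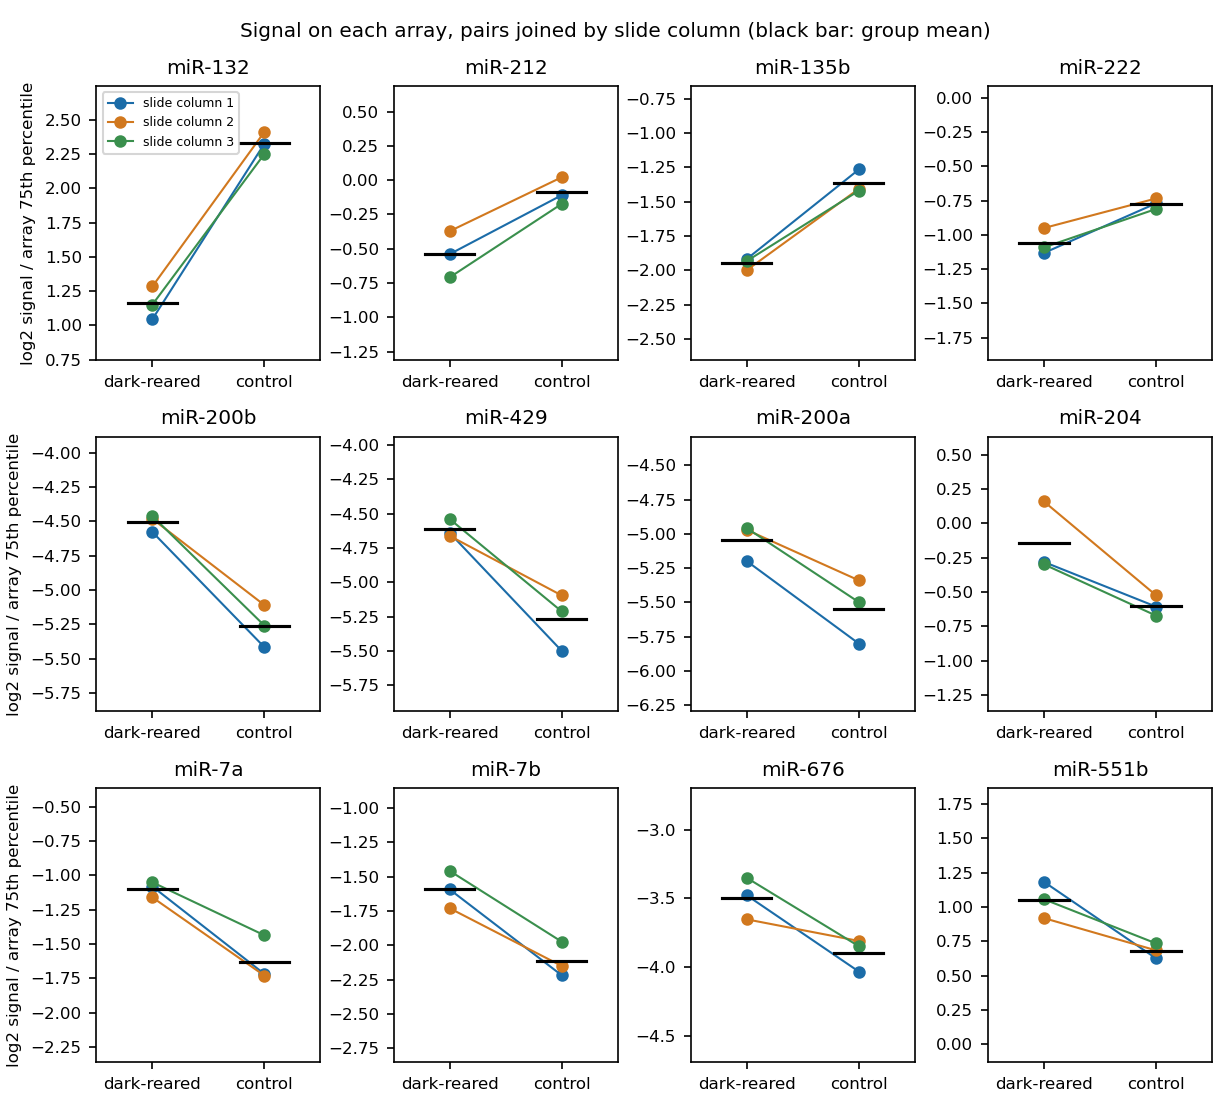
Log2 signal relative to the array's 75th percentile of 12 miRNAs on the 3 dark-reared arrays (left) and 3 control arrays (right), with lines joining arrays of 1 slide column and black bars at the group means. Each panel spans the same range of 2 log2 units. In each panel, no dark-reared array overlaps a control array, and miR-132 has the widest gap.

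miR-200b measured -4.58, -4.48 and -4.46 on the dark-reared arrays and -5.42, -5.11 and -5.26 on the control arrays. Every dark-reared array was above every control array, and the level was 1.69-fold higher (log2 change 0.76, SE 0.13, limma adjusted p = 0.0450). The differences within columns were 0.84, 0.63 and 0.80, and the probes gave 0.72 and 0.92. With the replicate block the limma adjusted p was 0.0531 on 9 arrays and 0.0779 on 6, which ends the call. Its intensity was low, at 33.1, 17.9 and 35.02 units on the dark-reared arrays and 23.9, 14.3 and 20.2 units on the control arrays.

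The neighbours of miR-200b also lay above control, without passing. miR-429 measured -4.64, -4.66 and -4.54 in dark-reared and -5.50, -5.10 and -5.21 in control samples (log2 change 0.66, SE 0.13, limma adjusted p = 0.0682). miR-200a measured -5.20, -4.97 and -4.96 in dark-reared and -5.80, -5.34 and -5.50 in control samples (0.50, SE 0.17, adjusted p = 0.331). Neither pair of groups overlapped, although for both 1 of the 3 control arrays was not well above background. With the replicate block, the limma adjusted p of miR-429 was 0.0568 on 9 arrays and 0.120 on 6, and that of miR-200a 0.134 and 0.102. With normexp background correction, which ended the call of miR-200b, the changes were 0.11 for miR-200b, 0.059 for miR-429 and 0.039 for miR-200a. That setting added an offset of 50 intensity units, which by itself draws the log2 changes of such dim miRNAs towards 0. Those smaller values therefore cannot show whether the rises came from background. The other family members on the array, miR-200c and miR-141, were detected on 0 of the 6 arrays.

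miR-204, which lies in an intron of Trpm3, was higher on all dark-reared arrays, at -0.28, 0.16 and -0.30, than on the control arrays, at -0.61, -0.52 and -0.67. Dark-reared replicate 2 stood above the other two. The change was 0.46 (SE 0.13, limma adjusted p = 0.240), with a limma adjusted p of 0.0697 on 9 arrays and 0.181 on 6 under the replicate block. Its relative miR-211, detected on 2 dark-reared arrays and 1 control array, was not tested. The list of choroid plexus and epithelial markers consists of these miRNAs: 4 of 4 tested members lay above control, with a median of 0.58, against 0.05 over all miRNAs, and 1 passed, against 0.629% of all. Its median was 0.36 without scaling and 0.084 with normexp, where the offset shrinks the changes of its dim members. The summed signal of the list was -0.07 to 0.33 in dark-reared and -0.47 to -0.33 in control samples on the log2 scale. Most of that sum was the signal of miR-204, so it largely repeats the values of miR-204. Since miR-200b is itself a member, the list gives no separate reading of its change, and a part of such tissue in that change was not tested.

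The miR-7 family, highly conserved miRNAs of neuroendocrine cells, was higher in dark-reared cortex on every array. miR-7b measured -1.59, -1.73 and -1.46 in dark-reared and -2.22, -2.15 and -1.97 in control samples (log2 change 0.52, SE 0.10, limma adjusted p = 0.0682). miR-7a measured -1.08, -1.16 and -1.05 in dark-reared and -1.72, -1.73 and -1.44 in control samples (0.53, SE 0.18, adjusted p = 0.331). With the replicate block on 9 arrays, the limma adjusted p of miR-7b was 0.0531, the value of miR-132 and miR-200b, and that of miR-7a was 0.201. On 6 arrays it was 0.102 for both miR-7b and miR-7a. The family median of 0.53 was 0.30 without scaling and 0.27 with normexp. Since they differ at 1 base, the probes may not fully separate them. miR-7a*, the opposite arm of 1 of the miR-7a hairpins, changed by 0.18 (SE 0.09, adjusted p = 0.532), and the arm difference of 0.35 did not overlap between the groups.

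Other miRNAs among the 10 of smallest p above control were miR-676, miR-551b, miR-101b and let-7a*. miR-676 measured -3.48, -3.65 and -3.35 in dark-reared and -4.03, -3.81 and -3.85 in control samples. miR-551b measured 1.18, 0.92 and 1.06 in dark-reared and 0.63, 0.68 and 0.73 in control samples. The changes were 0.40 and 0.37, with limma adjusted p of 0.240 and 0.331, and neither passed. miR-101b changed by 0.21 (adjusted p = 0.373), and miR-101a, of the same name family, by 0.10 (adjusted p = 0.787). For let-7a* (0.54, SE 0.20, adjusted p = 0.412) the probes carry 1 other name, and the brightest of its 4 probes gave -0.01, so its value is uncertain.

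Below control, miR-135b had the next largest distance after miR-132 among miRNAs whose groups did not overlap. It measured -1.92, -1.999 and -1.93 in dark-reared and -1.27, -1.41 and -1.42 in control samples, so that all arrays of each group lay close together. The change was -0.59 (SE 0.15, limma adjusted p = 0.205), and it passed where the 6 arrays were fitted alone (adjusted p = 0.0324). The replicate block ended that call, with a limma adjusted p of 0.0779 on 6 arrays and 0.134 on 9. miR-135a measured -2.52, -2.67 and -2.54 in dark-reared and -2.76, -2.58 and -2.38 in control samples, a change of -0.003 (adjusted p = 0.993), and its arrays overlapped.

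miR-222 measured -1.13, -0.95 and -1.09 in dark-reared and -0.77, -0.73 and -0.81 in control samples. The change was -0.29 (SE 0.10, limma adjusted p = 0.331). Its seed partner miR-221, from the same X-linked cluster, changed by -0.13 (adjusted p = 0.599), also without overlap. In endothelium, the arms of the miR-126 hairpin are abundant: miR-126-5p changed by -0.25 (adjusted p = 0.288) and miR-126-3p by -0.13 (adjusted p = 0.614).

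The remaining miRNAs of smallest p below control were miR-667, miR-1902, miR-674, miR-690 and miR-22*. Their changes were -0.40, -0.53, -0.48, -0.43 and -0.20, with limma adjusted p of 0.204 to 0.468. Of these, miR-690 alone had overlapping groups. miR-667 was well above background on 1 dark-reared and 3 control arrays, and miR-1902 on 1 and 2. The brightest of the 4 miR-667 probes gave -0.08 with overlap, and both miR-1902 probes overlapped. For miR-674, 1 of 4 probes did not overlap. The sizes of the changes of miR-667, miR-1902 and miR-674 are therefore uncertain. miR-1902 also lay at the lower limit set for the log2 values (-7.89) on every monocularly deprived array, which narrows its spread in the fit of 9 arrays. Fitted on the 6 compared arrays alone, its limma adjusted p was 0.385. The partner arms miR-674* (-0.21) and miR-22 (-0.15) also lay below control without overlap. Over the 20 miRNAs of smallest p, 10 in each direction, all 20 kept their sign in the 3 slide columns and 19 had groups that did not overlap; the small p had selected them.

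Of the 20 miRNAs with the highest control signal, a ranking of probe brightness and not of abundance, 19 changed by less than 0.2 in either direction and 1 passed, miR-132. miR-128, a neuronal miRNA, measured 5.05, 4.92 and 5.11 in dark-reared and 5.06, 5.09 and 5.15 in control samples. The change was -0.07 (limma adjusted p = 0.893). miR-124, the most studied neuronal miRNA, measured 4.54, 4.63 and 4.44 in dark-reared and 4.55, 4.55 and 4.46 in control samples. Its change was 0.02 (adjusted p = 0.942), with the sign turned by scaling on all miRNA probes, without scaling and by centring on the median. miR-9 changed by -0.13 (adjusted p = 0.614) and miR-129-3p by -0.16 (adjusted p = 0.735), where miR-129-3p had no overlap.

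Beside the epithelial list, the marker lists of other cells had medians of -0.11 to 0.16, and 0 of their members passed in limma. Of the 9 tested neuronal miRNAs, 5 lay above control and 4 below (median 0.01), of 6 astrocyte miRNAs 2 and 4 (median -0.02), of 3 oligodendrocyte miRNAs 1 and 2 (median -0.005), and of 4 microglial and leukocyte miRNAs 2 and 2 (median -0.004). The astrocyte-enriched miR-29a changed by -0.01 (adjusted p = 0.960). The oligodendrocyte miR-219 measured -0.29, 0.22 and -0.15 in dark-reared and -0.05, -0.34 and 0.19 in control samples, so that its groups overlapped. miR-338-3p, of the same cells, changed by 0.13 (adjusted p = 0.788), and the leukocyte miR-142-3p by 0.05 (adjusted p = 0.885). The leukocyte miRNAs miR-223 and miR-150 changed by 0.37 (adjusted p = 0.787) and -0.10 (adjusted p = 0.788), and the groups of miR-223 did not overlap. Of the 4 vascular miRNAs, 0 lay above and 4 below control (median -0.11), among them miR-145 (-0.10) and miR-143 (-0.04). The groups of 2 of the 4, the arms of miR-126, did not overlap, against 7.86% of all miRNAs. All 3 red blood cell miRNAs lay above control (median 0.16, but -0.067 without scaling and -0.086 without control replicate 2), and their groups overlapped. The summed level of that list was 0.53 to 1.39 in dark-reared and 0.41 to 1.35 in control samples on the log2 scale. Of 3 muscle miRNAs, 2 lay above and 1 below control (median 0.03). Of the 4 markers of retina and sensory cells, miR-96, miR-182 and miR-183 were detected on 0 of the 6 arrays, and miR-184 on 1 dark-reared and 1 control array.

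**Figure D3:**
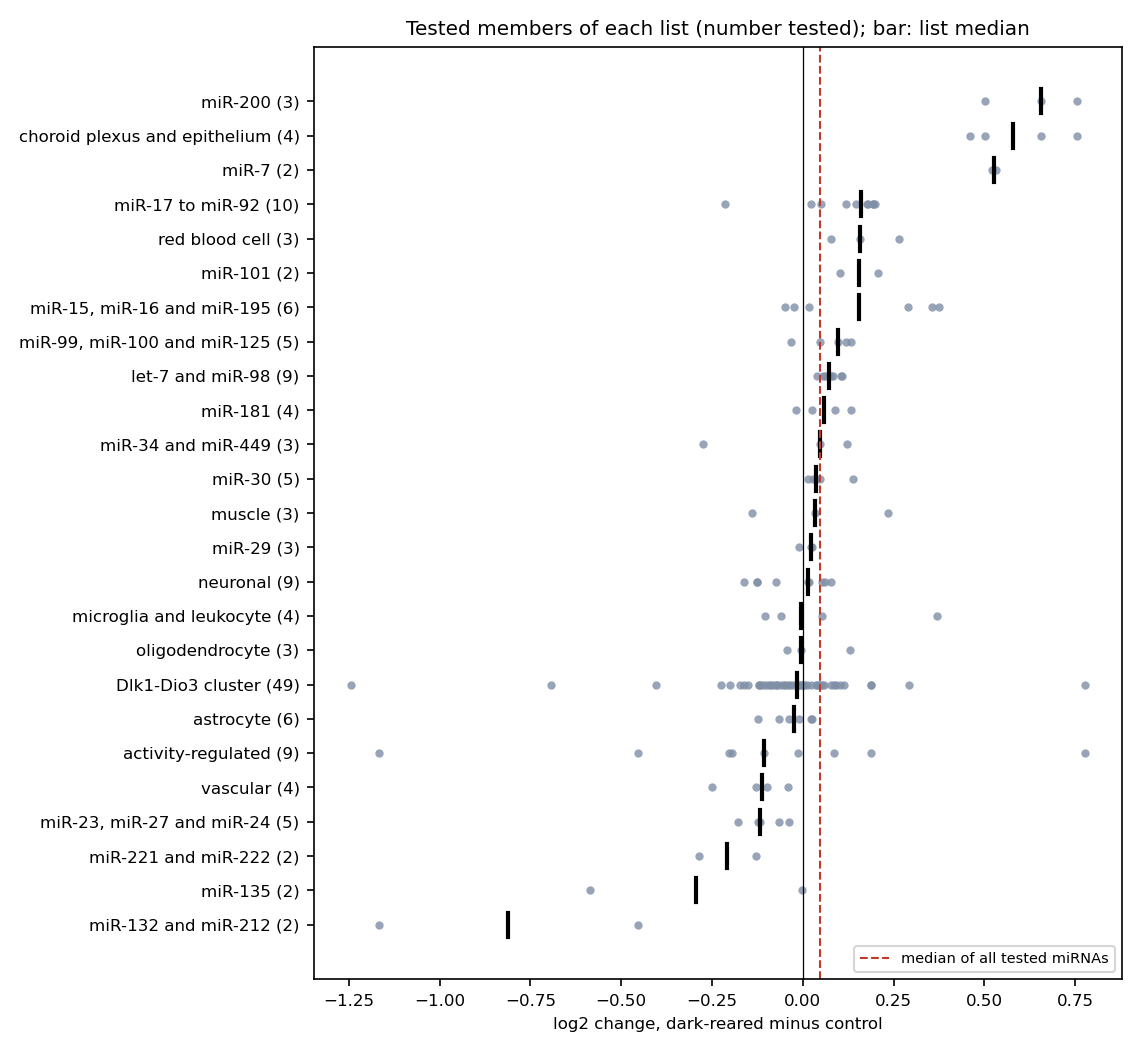
Log2 change (dark-reared minus control) of the tested members of each list, with the number tested in brackets, black bars at the list medians and a dashed line at the median of all tested miRNAs (0.05). The miR-200 list (median 0.66), the choroid plexus and epithelial list (0.58) and the miR-7 list (0.53) lie highest, and the pair miR-132 and miR-212 lies lowest.

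Seed families and clusters differed in how uniformly their members lay. In the list of the miR-23a and miR-23b clusters, 0 of 5 members lay above control and 5 below (median -0.12), with 0 past the threshold, among them miR-27a (-0.18), miR-23a (-0.12) and miR-24 (-0.12). All 9 members of the let-7 list lay above control, by 0.04 to 0.11, with 0 past the threshold, but the list median was -0.05 with scaling on all miRNA probes, -0.15 without scaling and -0.03 with centring. Of 10 tested members of the miR-17 to miR-92 list, 9 lay above and 1 below control (median 0.16), with 0 past the threshold and a median of -0.06 without scaling. Of 49 tested members of the imprinted Dlk1-Dio3 cluster, 18 lay above and 31 below (median -0.02), again with 0 past the threshold.

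Of the miR-15, miR-16 and miR-195 list, 4 of 6 members lay above control and 2 below (median 0.15, and -0.07 without scaling), with 0 past the threshold. miR-195 measured 0.03, 0.62 and -0.01 in dark-reared and -0.23, -0.13 and -0.13 in control samples. Its neighbour on chromosome 11, miR-497, measured 0.003, 0.57 and -0.02 in dark-reared and -0.25, -0.13 and -0.13 in control samples. Both were highest on dark-reared replicate 2, the array on which miR-204 was also highest, and without that array their changes were 0.17 and 0.16.

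The 5 miRNAs of largest rise had arrays that overlapped between the groups. miR-207 measured -2.89, -4.94 and -6.84 on the dark-reared arrays and -3.80, -7.50 and -7.58 on the control arrays. miR-468 measured -2.97, -4.36 and -5.44 on the dark-reared arrays and -3.11, -6.59 and -6.63 on the control arrays. Replicate 1 of both groups, which shared slide column 1, was the highest array of its group for both. miR-669h-3p, miR-466h and miR-467b* had the same highest arrays, and the 5 changes ran from 0.90 to 1.40 with SEs of 0.85 to 1.19 and limma adjusted p of 0.736 to 0.787. miR-207, miR-669h-3p and miR-466h were detected on 3 dark-reared arrays and 1 control array, miR-467b* on 3 and 2, and miR-468 on 3 and 3. Except for miR-468, the control group thus did not bring them through the filter on detection. Where only the higher group meets that filter, large rises are favoured. All 5 were well above background on 1 to 3 dark-reared arrays and on 1 control array, and replicate 1 was also the noisier array of each group. The part of that noise in their changes was not tested.

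Within slide columns 1, 2 and 3 the differences were 0.91, 2.56 and 0.74 for miR-207 and 0.14, 2.23 and 1.19 for miR-468. For miR-466h they were 0.51, 1.82 and 1.11, and for miR-669h-3p 1.02, 2.36 and 0.26. Those 4 were thus higher in each column, as were 25.8% of all miRNAs, whereas miR-467b* differed by 1.03, 1.74 and -0.05. With the replicate block on 9 arrays the limma adjusted p was 0.0568 for miR-466h and 0.130 to 0.201 for the other 4, so that 0 passed. On the 6 compared arrays with that block it was 0.226 for miR-466h and 0.249 to 0.284 for the other 4. On every monocularly deprived array, miR-466h and miR-467b* lay at the lower limit set for the log2 values (-7.89), which narrows their spread in the fit of 9 arrays. The sizes depended on single arrays: without dark-reared replicate 1 the changes were 0.40 for miR-207, 0.37 for miR-669h-3p, 0.55 for miR-468, 0.43 for miR-466h and 0.10 for miR-467b*. Without control replicate 1 they were 2.65, 2.16, 2.35, 2.18 and 1.64 in the same order, and the highest for miR-467b* was 1.77, without dark-reared replicate 3.

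Among the largest falls, miR-494 measured 0.35, -1.17 and -1.91 on the dark-reared arrays and 1.00, -0.002 and -0.0002 on the control arrays. The groups overlapped, and the change of -1.24 (SE 0.56) did not pass (limma adjusted p = 0.510). Its differences within slide columns were -0.65, -1.17 and -1.91, and its change was -1.87 without dark-reared replicate 1 and -0.74 without dark-reared replicate 3. miR-770-3p changed by -0.69 (SE 0.37, adjusted p = 0.558), also with overlapping groups. Its differences within columns were -1.82, -0.01 and -0.25, and its change was -0.32 without control replicate 1 and -1.04 without control replicate 3. The spread within groups was wider for dim miRNAs: its median SD was 0.24, 0.12 and 0.10 log2 units in the 106 miRNAs of lowest, 106 of middle and 106 of highest level. miR-494 was among those of highest level, yet its SD was 1.15 in dark-reared and 0.58 in control samples.

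**Figure D4:**
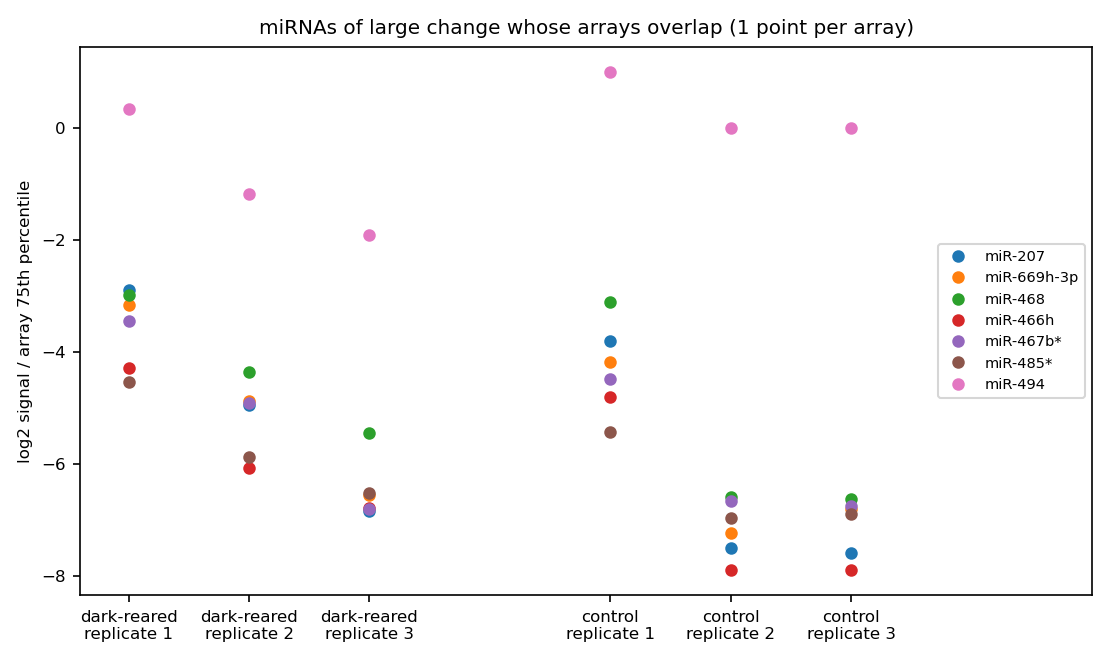
Log2 signal relative to the array's 75th percentile of 7 miRNAs of large change on each dark-reared array (left) and each control array (right), with 1 point per array. Replicate 1 is the highest array of each group for all 7, and the groups overlap in each.

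Whether a miRNA was seen at all differed little between the groups. Of the 611 mouse names on the array, 246 were well above background on all 6 arrays, and 0 were so on all 3 arrays of either group and on none of the other. miR-483* was called detected on 3 dark-reared arrays and 0 control arrays, but it was well above background on none of them.

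The calls were close to the threshold. Leaving out any 1 dark-reared or control array left 0 calls in limma, with 20 to 39 unadjusted p under 0.05, and so did leaving out monocularly deprived replicate 1 from the fit, with the scaling probes and the filter kept. Over 26 alternative settings miR-132 stayed below control, by -1.39 to -1.06, and passed in 14, while miR-200b stayed above control, by 0.11 to 0.83, and passed in 7. The value of 0.11 was that of normexp, whose offset shrinks the changes of dim miRNAs.

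**Figure D5:**
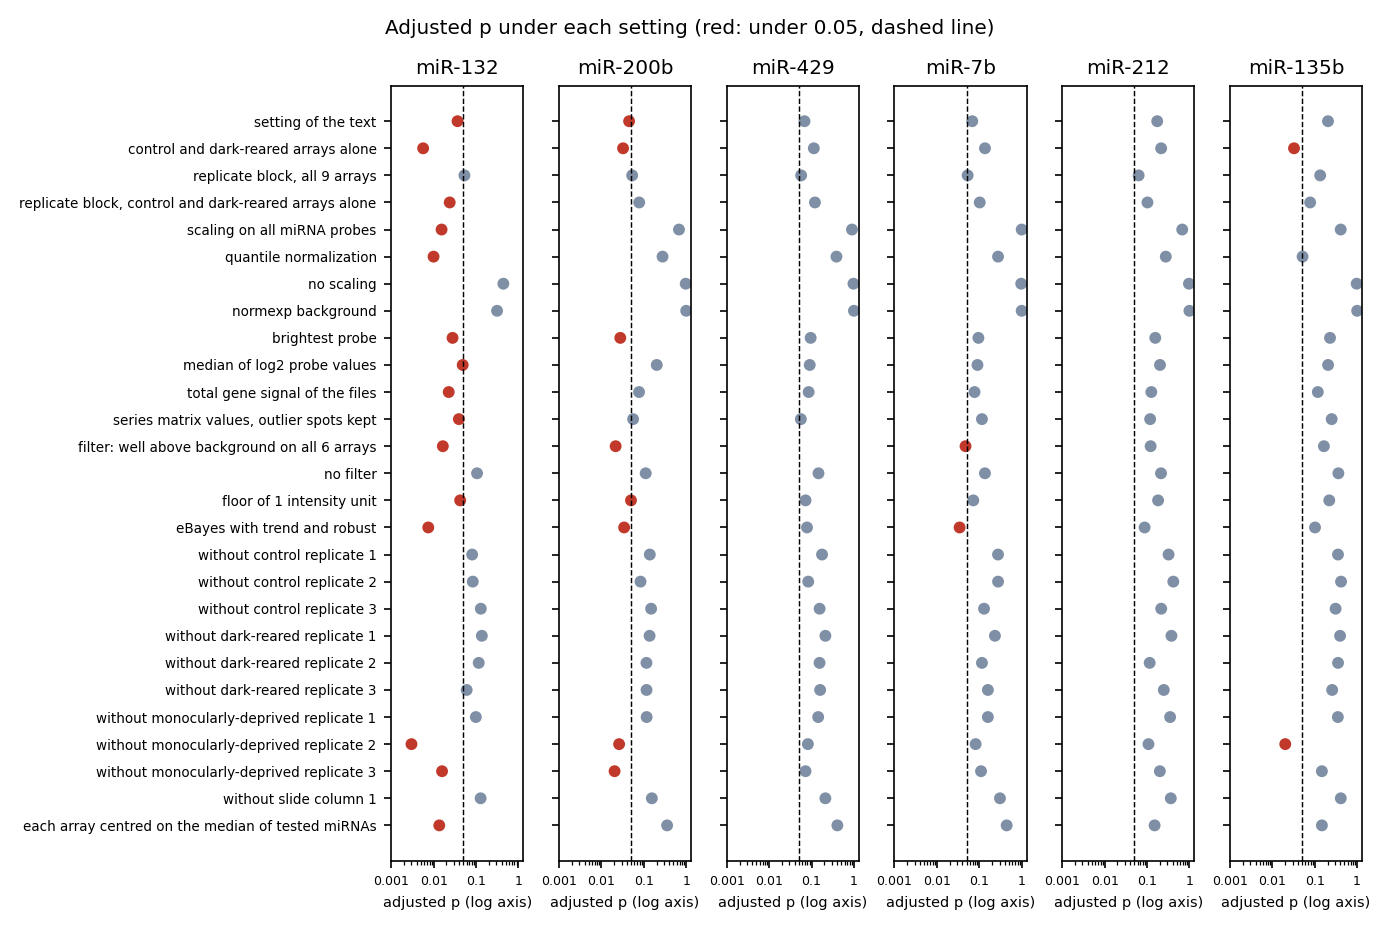
Benjamini-Hochberg adjusted p (log axis) of 6 miRNAs in the setting of the text and in 26 alternatives (25 for miR-429), with red points under 0.05, marked by the dashed line. miR-132 passed in 14 alternatives, miR-200b in 7, miR-7b and miR-135b in 2 each, and miR-429 and miR-212 in 0.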

How the data were processed

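The deposited scanner files hold fluorescence intensity per spot (13715 spots, 13000 of miRNA probes). Background was subtracted by Feature Extraction 10.1.1.1 (Agilent), per the file headers, which also removed a spatial trend, and no scaling between arrays is recorded. The series matrix deposited by the authors holds the same intensity: 100% of spots were equal within a relative 1e-05. Spots flagged as outliers were left out, the processed intensity was averaged over spots and then probes, and divided by each array's 75th percentile taken over 433 probes that each of the 9 arrays had well above background. A floor at the 1st percentile of detected miRNAs (0.00422) preceded the log2. From the deposited intensity, log2 values were thus computed for 318 mouse miRNAs detected throughout the 3 arrays of some group, 14 of them only through the monocularly deprived group. limma 3.58.1 (R 4.3.3) was fitted to 9 arrays with 3 group means and tested on simulated data. Same-numbered dark-reared and control arrays, which share slide columns, deviated together with r = 0.887, 0.324 and 0.815 across miRNAs. Control replicate 2 had r = 0.615 with dark-reared replicate 3, so the pairing by number was clear for replicates 1 and 3 and not for replicate 2. The number of arrays limits precision. No pair of arrays within the control group or within the dark-reared group was near-identical, and other pairs were not checked for this.

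The members, lists and tests were chosen with earlier results of these data known. The naming rule took 99 miRNAs: those past the threshold, the 10 of smallest p in each direction with their other arms and seed families, the 20 of highest control signal, the 5 of largest change in each direction, and up to 4 of highest level per list. The text names 51 of them, a choice made after their values were seen, and miR-485* outside the rule. Alternatives changed scaling, background, probe summary, filter, floor, block and replicates. The normexp alternative had an offset of 50 intensity units, which shrinks the log2 changes of dim miRNAs.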

Additional observations from a re-analysis of the deposited data

How the results depend on the processing

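Against 2 calls, limma called 3 with the dark-reared and control arrays alone, 0 with the replicate block on 9 arrays (55 unadjusted p under 0.05) and 1 with that block on 6, 1 with scaling on all miRNA probes, quantile normalization, the median of log2 probe values, the total gene signal or the series matrix values, 0 without scaling or with normexp (3 and 2 unadjusted), and 3 with the filter on all 6 arrays or a trended robust prior. Without each replicate there were 0 to 3. Chosen after seeing the data, leaving out slide column 1 gave 1 call, miR-466h (limma adjusted p = 0.0471), and centring on the median gave 1. In the fit without slide column 1, miR-466h was at the floor (-7.89) on every control and monocularly deprived array. Its spread there came from the dark-reared arrays alone, so that p does not measure the spread among replicates of each group. The replicate block ended the calls of miR-132 (on 9 arrays) and miR-200b and, against the fit of 6 arrays, that of miR-135b (0.0779), and changed no other call. Without a filter 2 were called, neither of them miR-132 or miR-200b. The median change of all miRNAs, 0.05, was -0.0781 with scaling on all probes, -0.0261 with quantile normalization, -0.175 without scaling, -0.0064 with normexp and -0.058 with centring.

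Signs turned mostly for changes near 0, and for let-7a* (0.54) by the choice of probe. With scaling on all probes, miR-101a was at -0.024, miR-124 at -0.109 and miR-142-3p at -0.075. Without scaling, miR-101b was at -0.0162, miR-101a at -0.121, miR-7a* at -0.0468, miR-124 at -0.206, miR-142-3p at -0.172 and miR-338-3p at -0.0937. With centring, miR-101a was at -0.00319, miR-124 at -0.0884 and miR-142-3p at -0.0543. With quantile normalization, miR-22 was at 0.0355 and miR-142-3p at -0.0359, and with normexp miR-142-3p at -0.0218. With the brightest probe, let-7a* was at -0.00555 and miR-29a at 0.00578, with the median of probes miR-135a at 0.00132, and with the total gene signal miR-135a at 0.0384, miR-29a at 0.0317 and miR-219 at 0.0363. Without slide column 1, miR-219 was at 0.11. Leaving out 1 replicate, changes ranged over -0.098 to 0.0935 for miR-135a, -0.194 to 0.0785 for miR-143, -0.0306 to 0.0684 for miR-124, -0.0493 to 0.0275 for miR-29a, -0.154 to 0.126 for miR-219, -0.0189 to 0.138 for miR-142-3p and -0.0175 to 0.227 for miR-338-3p. The cause was not tested. Of 1340 recomputed changes of the 52 named miRNAs, 34 turned sign, 31 lost a call and 5 gained it. Of the 48 miRNAs of the naming rule that the text leaves unnamed, 43 turned sign in at least 1 setting, all with changes of at most 0.23, and 0 passed in any setting. Signal over background limits the dim miRNAs: 246 of 318 were well above background on all 6 arrays.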

Other observations

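The arms of 52 hairpins were both tested. In 35 pairs both arms changed in the same direction, and the median absolute difference between the changes of the arms was 0.12 log2 units. In 9 pairs (17.3%) the difference between arms did not overlap between dark-reared and control arrays, beside 18.6% of single miRNAs. The pairs of miR-7a and miR-674 were among them, and let-7a*, whose value is uncertain, entered them repeatedly with different partners. Some other arms, such as miR-24, also entered repeatedly, so the 52 pairs are not all separate comparisons. The arrays also carry 39 viral miRNA names, of which 5, 5 and 7 were called detected on the dark-reared arrays and 6 on each control array.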
